A study of Homo sapiens with 6 samples.

Results

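The sterol and fatty acid metabolism genes are 48 named genes, 21 of cholesterol synthesis and its control, 10 of fatty acid synthesis, and 17 of fatty acid activation, oxidation and storage. Their probe sets were those that the platform annotation gives exactly 1 gene symbol, which found 112 probe sets for 44 of the 48 genes, out of 41097 such probe sets on the array. CYP51A1, FADS1, FDFT1 and ACSL3 had no probe set chosen this way and were not analysed here. All 44 others passed the filter on dim signals, and 13822 genes were tested in all. Signals came from 6 Affymetrix arrays of MDA-MB-231 cells, an established line of human ER-negative breast cancer, and each array took 2.5 ug of total RNA. The 3 control siRNA arrays and the 3 LSD1 siRNA arrays are biological replicates of cells transfected in 2 rounds and collected after 6 days, and the comparison asks which transcripts differ once LSD1 is depleted. LSD1, the product of KDM1A, is a histone demethylase. The study used 1 cell line, and the sequence and number of the siRNAs are not given in the sources used here.

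Cells build cholesterol from acetyl-CoA through mevalonate, isoprenoid diphosphates and squalene, and each step has its own enzyme. Fatty acids are also built from acetyl-CoA, which citrate cleavage supplies in the cytosol, and are then lengthened and desaturated. Both routes are under the sterol regulatory element binding proteins, transcription factors that INSIG proteins hold in the endoplasmic reticulum when sterols are plentiful. Fatty acids to be burned are joined to coenzyme A, carried into mitochondria as carnitine esters and shortened stepwise by beta-oxidation. Tumour cells are known to use both synthesis and oxidation of fatty acids.

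KDM1A was at 2540.1, 2493 and 2295 on the control arrays and 291, 184 and 228 on the LSD1 siRNA arrays, 9.58% of control, with a log2 change of -3.32 ± 0.13 (SE) and a limma adjusted p of 1.46e-08. The exact permutation p of its 6 signals, two-sided, was 0.1, and no smaller value is possible with 3 arrays a group. The trimmed mean signal was 500.1 on every array. The ACTB 3' to 5' signal ratio, a measure of RNA integrity, was 1.74 on control array 1 and 1.33 to 1.43 on the other 5 arrays. Without control array 1, 20 of the 21 member calls given below were kept and DHCR7 was lost. The 7 breast carcinoma markers KRT8, KRT18, KRT19, VIM, CD44, EGFR and CAV1 had mean signals from 3959 to 32798 in either group. KRT19 rose by 0.42 on the log2 scale, KRT8, KRT18 and EGFR changed by -0.25, -0.45 and -0.25, and the other 3 did not pass. These values are for 1 probe set per gene. Of 11 tested CD44 sets 2 passed higher and 2 lower, and of 7 tested EGFR sets 1 passed each way. KRT8 and KRT18 have 1 set each, of a kind that may cross-hybridise. The part of these shifts in the results was not tested, and ESR1 was at 59.1 and 75.7 in the control and LSD1 siRNA groups. In bulk RNA, fewer cells with a transcript and less of it per cell cannot be told apart.

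Among the members, 5 of 9 tested fatty acid synthesis genes fell with LSD1 siRNA, genes of fatty acid use rose or did not pass the test, and genes of cholesterol synthesis went both ways. Other genes of the same pathways, described at the end, fell as well as rose in each pathway. Groups were compared with limma on log2(signal + 15), where each gene is represented by its brightest probe set and p-values are adjusted over all 13822 genes tested. Of the 44 members, 11 rose and 10 fell at an adjusted p of 0.05, where 41.0% of all genes passed, 19.8% of them higher and 21.3% lower. Of 19 tested sterol members, 4 rose and 5 fell, with a median log2 change of -0.15. Of 9 tested fatty acid synthesis members, 1 rose and 5 fell, with a median of -0.30. Of 16 tested members of fatty acid use, 6 rose and none fell, with a median of 0.14. The median over all genes tested was -0.02. In all, 47.4% of sterol, 66.7% of fatty acid synthesis and 37.5% of fatty acid use members passed, beside 41.0% of all genes. At an unadjusted limma p of 0.05, 8 members of fatty acid use were higher and 0 lower. The share of all genes at that threshold is not given, so this count has no background. For 25 of the 44 members, or 56.8%, no array of 1 group lay within the range of the other, beside 50.4% of all genes. Most called changes were below 1.5-fold: 5 of the 44 members passed with at least that change, beside 16.0% of all genes. No member passed with a 2-fold change, beside 640 of all 13822 genes tested. These counts depend in part on the variance model and on the probe sets taken for a gene. Without an intensity trend 6 of the 21 calls were lost, in the unmoderated test 4 were lost, and with the mean of all probe sets in place of the brightest 14 were kept.

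**Figure D1:**
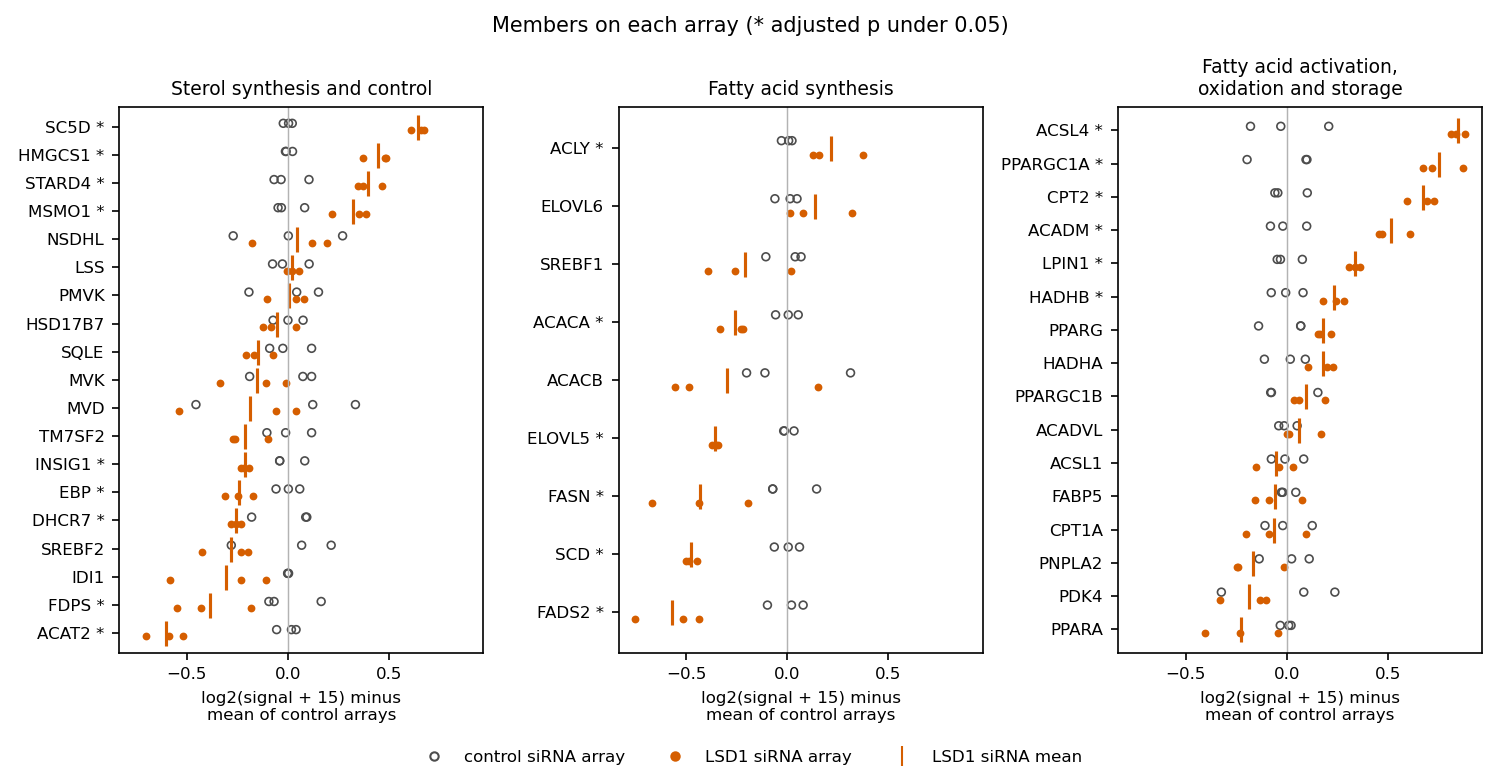
Each row is a member and each circle an array, placed at its log2(signal + 15) minus the mean of the 3 control arrays. Open circles are control siRNA arrays, filled circles are LSD1 siRNA arrays, the vertical bar is the LSD1 siRNA mean, and an asterisk marks an adjusted p under 0.05. The mean shifts run from -0.60 for ACAT2 to 0.85 for ACSL4.

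**Figure D2:**
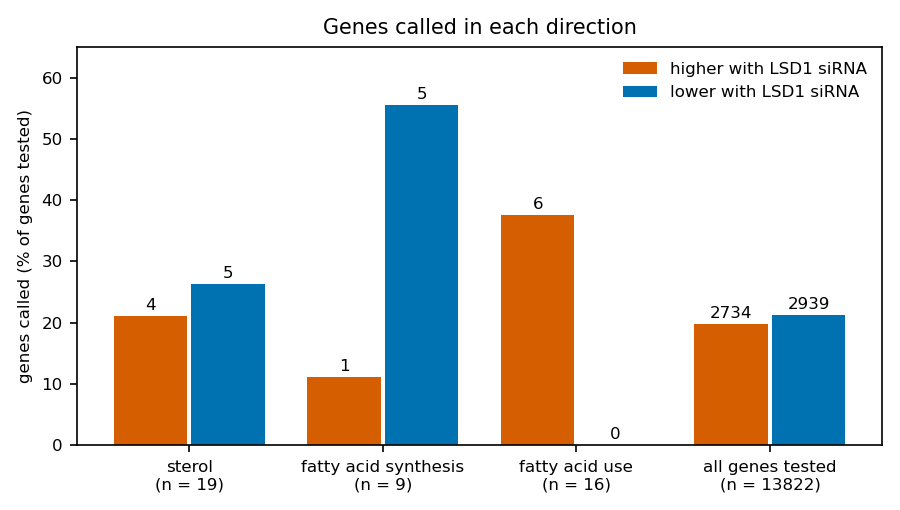
Bars give the share of tested genes called higher or lower with LSD1 siRNA, in percent, for the 3 classes of members and for all genes tested, with the number of genes over each bar. Fatty acid synthesis has 5 lower members of 9, and fatty acid use has 6 higher members of 16 and no lower one. Of all genes tested, 19.8% were higher and 21.3% lower.

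SC5D, HMGCS1, STARD4 and MSMO1 were the sterol members that rose, by 0.32 to 0.65 on the log2 scale. SC5D encodes the desaturase of a late step of cholesterol synthesis, and its signals were 1415, 1441 and 1459.9 on the control arrays and 2275, 2199 and 2303 on the LSD1 siRNA arrays. That is 157% of control, a log2 change of 0.65 ± 0.06 (SE) with a limma adjusted p of 6.83e-06, and the arrays of each group lay close together. HMGCS1 makes HMG-CoA, the precursor of mevalonate, and its signals were 468, 479 and 467 on the control arrays and 665, 664 and 613 on the LSD1 siRNA arrays. The groups did not overlap, and the log2 change was 0.44 ± 0.09 (limma adjusted p = 0.0014). STARD4, which carries cholesterol between membranes, had signals of 1883, 1709 and 1668 on the control arrays and 2420.5, 2269.6 and 2232 on the LSD1 siRNA arrays. All 3 LSD1 siRNA arrays were above every control array, with a change of 0.39 ± 0.07 (limma adjusted p = 0.000672). MSMO1, an oxidase that removes methyl groups from sterols, had signals of 3305, 3267 and 3580.4 on the control arrays and 4429.7, 4323 and 3934 on the LSD1 siRNA arrays. The change was 0.32 ± 0.07 (limma adjusted p = 0.00225), again without overlap. With the mean of all probe sets, SC5D was at 0.21 (limma adjusted p = 0.174) and HMGCS1 at 0.32 (limma adjusted p = 0.0543), while STARD4 and MSMO1 have 1 probe set each.

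ACAT2, FDPS, DHCR7, EBP and INSIG1 were the sterol members that fell. ACAT2, the thiolase that condenses acetyl-CoA at the head of the pathway, had signals of 4474, 4184 and 4403 on the control arrays and 2887, 3032 and 2671 on the LSD1 siRNA arrays. It ended at 65.8% of control, the lowest share among the members, with a log2 change of -0.60 ± 0.06 (SE) and a limma adjusted p of 1.91e-05. FDPS, which makes farnesyl diphosphate, had signals of 8267, 6907 and 7031 on the control arrays and 6500.3, 5476 and 5027 on the LSD1 siRNA arrays. LSD1 siRNA array 1 came near the lowest control array without reaching it, and the change was -0.39 ± 0.10 (limma adjusted p = 0.0067). EBP, the isomerase that moves a double bond in the sterol ring, had signals of 1711, 1779.7 and 1639 on the control arrays and 1374, 1438 and 1515 on the LSD1 siRNA arrays, a change of -0.24 ± 0.07 (limma adjusted p = 0.0129). DHCR7, the reductase of the last step to cholesterol, had signals of 1401, 1396 and 1157 on the control arrays and 1078, 1117 and 1098 on the LSD1 siRNA arrays. Control array 3 was the low one of its group here, near the LSD1 siRNA arrays, and the change was -0.26 ± 0.08 (limma adjusted p = 0.0292). INSIG1, the sterol sensor that retains the binding proteins in the endoplasmic reticulum, had signals of 5047, 5049 and 5502 on the control arrays and 4419, 4548 and 4465 on the LSD1 siRNA arrays. The LSD1 siRNA arrays lay within a narrow range below all control arrays, with a change of -0.21 ± 0.06 (limma adjusted p = 0.0121).

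DHCR7 lost its call in 7 of the 17 alternatives run. Its limma adjusted p was 0.109 without control array 1, 0.106 without control array 2, and 0.0788, 0.0594 and 0.0711 without LSD1 siRNA arrays 1, 2 and 3. EBP had a limma adjusted p of 0.0509 without control array 2 and 0.0536 without LSD1 siRNA array 1. Leaving out control array 2 or LSD1 siRNA array 1 thus left 3 lower sterol members in place of 5. Without an intensity trend the limma adjusted p was 0.0591 for FDPS, 0.0849 for DHCR7 and 0.0534 for INSIG1.

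IDI1, the isomerase of the isoprenoid building blocks, was not called by its representative probe set but has 3 others that fell. Sets with the x suffix, which marks possible cross-hybridisation, represent a gene only where it has no other, so IDI1 is represented by a dim set, with signals of 96.3, 96.0 and 96.1 on the control arrays and 87.9, 59.2 and 79.6 on the LSD1 siRNA arrays. Its value was -0.31 ± 0.21 (limma adjusted p = 0.287). The brightest of its x sets had signals of 3637, 3649.8 and 3603 on the control arrays and 2849, 3032 and 2877 on the LSD1 siRNA arrays, a log2 change of -0.31 ± 0.06 over probe sets (limma adjusted p = 0.00152). The other x sets changed by -0.33 ± 0.06 and -0.40 ± 0.11 (limma adjusted p = 0.00173 and 0.0139). All 4 values lie below 0, and IDI1 passed at -0.31 (limma adjusted p = 0.000897) when the brightest probe set was taken whatever its suffix, which makes 6 lower sterol members. That choice was added after the values were seen.

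The other 9 sterol members did not pass. The enzyme genes of the mevalonate stage, MVK (-0.15 ± 0.11), PMVK (0.01 ± 0.09) and MVD (-0.19 ± 0.26), had log2 values close to 0 or with wide errors. MVD signals were dim, 128, 109 and 68.0 on the control arrays and 94.2, 63.4 and 102 on the LSD1 siRNA arrays, and the groups overlapped. SQLE, which oxidises squalene, had a value of -0.15 ± 0.08 (SE), and LSS, which closes the sterol ring, had 0.02 ± 0.07. Of the later enzyme genes, TM7SF2 had -0.21 ± 0.16, HSD17B7 -0.05 ± 0.07 and NSDHL 0.04 ± 0.14. HSD17B7 is represented by a set with the x suffix. SREBF2 encodes the main sterol-regulated transcription factor. Its signals were 625, 564 and 439.7 on the control arrays and 456, 467 and 397 on the LSD1 siRNA arrays. Its value was -0.28 ± 0.13 (limma adjusted p = 0.105), and without control array 3, the low one of its group, it was -0.42 with a limma adjusted p of 0.0116.

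Sterol genes are known for CCAAT boxes near their starts, where the factor NF-Y binds beside the sterol regulatory element binding proteins. Windows of 250 bases before the start were found in the RefSeq promoter table, build GRCh38.p14, for 43 of the 48 members, and some genes have several windows. A CCAAT match on either strand was present for 16 of 18 sterol members, 5 of 9 fatty acid synthesis members and 6 of 16 members of fatty acid use, beside 37.0% of all genes in the table and 32.0% of all windows. All 4 higher sterol members and all 4 lower ones with a window held a match, as did 8 of 9 without a call. The sterol regulatory element core TCACNCCAC, with any base at N, was found on either strand for 4 of 43 members, beside 1.09% of all genes. These were SREBF2, ACSL1, PNPLA2 and PPARGC1B, so 1 of 18 sterol, 0 of 9 fatty acid synthesis and 3 of 16 fatty acid use members. Sites that differ from these letters were not searched for, so sterol regulatory elements of other sequence would be missed. The E-box CACGTG was found for 4 of 43 members, SC5D, INSIG1, ELOVL5 and PPARGC1A, beside 7.73% of all genes. In the members' windows no match to 1 motif overlapped a match to another, and a match is a stretch of letters, not a measured binding site.

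Printed here are the windows of sterol genes that rose (MSMO1, STARD4) or fell (FDPS, EBP) and of the desaturase gene SCD, which fell. Capitals mark CCAAT or its complement ATTGG. They lie at chr4:165327419-165327668 on the plus strand for MSMO1, chr5:111512536-111512785 on the minus strand for STARD4, chr1:155308616-155308865 on the plus strand for FDPS, chrX:48521558-48521807 on the plus strand for EBP and chr10:100346983-100347232 on the plus strand for SCD.
MSMO1: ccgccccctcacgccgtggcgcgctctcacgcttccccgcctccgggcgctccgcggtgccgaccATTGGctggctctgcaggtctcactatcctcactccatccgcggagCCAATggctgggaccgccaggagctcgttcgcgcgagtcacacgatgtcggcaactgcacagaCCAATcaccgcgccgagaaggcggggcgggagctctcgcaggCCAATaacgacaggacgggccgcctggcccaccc
STARD4: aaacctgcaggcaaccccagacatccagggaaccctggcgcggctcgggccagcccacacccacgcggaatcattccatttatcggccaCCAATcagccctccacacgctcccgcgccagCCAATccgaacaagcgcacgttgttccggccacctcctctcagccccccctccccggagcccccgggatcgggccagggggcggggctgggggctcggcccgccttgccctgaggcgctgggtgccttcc
FDPS: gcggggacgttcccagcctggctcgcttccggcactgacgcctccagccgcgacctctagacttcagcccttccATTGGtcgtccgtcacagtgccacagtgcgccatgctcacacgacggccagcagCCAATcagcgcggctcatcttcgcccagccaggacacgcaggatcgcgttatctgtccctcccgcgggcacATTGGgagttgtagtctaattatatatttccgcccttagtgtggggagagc
EBP: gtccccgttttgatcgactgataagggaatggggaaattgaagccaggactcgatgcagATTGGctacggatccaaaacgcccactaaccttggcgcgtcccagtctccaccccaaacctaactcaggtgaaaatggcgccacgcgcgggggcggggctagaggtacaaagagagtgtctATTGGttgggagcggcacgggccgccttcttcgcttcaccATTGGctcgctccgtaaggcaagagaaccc
SCD: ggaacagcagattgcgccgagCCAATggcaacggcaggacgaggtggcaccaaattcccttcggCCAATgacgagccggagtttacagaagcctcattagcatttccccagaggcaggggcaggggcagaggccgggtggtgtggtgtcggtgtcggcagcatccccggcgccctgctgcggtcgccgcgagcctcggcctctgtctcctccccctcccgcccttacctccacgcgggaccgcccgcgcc

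**Figure D3:**
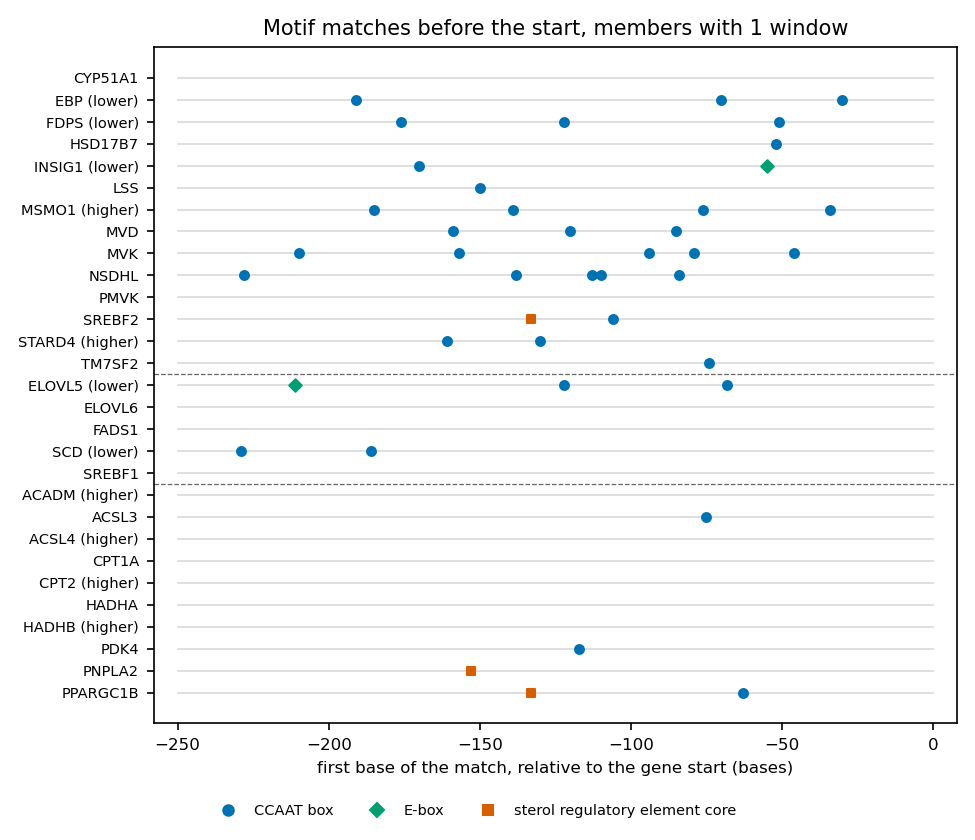
Each line is the window before the start of a member with 1 window, in bases from the start, and each symbol is the first base of a match to a CCAAT box, an E-box or a sterol regulatory element core on either strand. Dashed lines part the sterol genes (top), fatty acid synthesis genes and fatty acid use genes (bottom), and words in brackets give the direction of a call. Matches to the CCAAT box crowd most sterol rows, with or without a call, but PMVK and CYP51A1 hold none of the 3 motifs. The higher genes ACADM, CPT2, ACSL4 and HADHB hold none either, nor do HADHA, CPT1A, ELOVL6 and SREBF1, which have no call.

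In fatty acid synthesis, ACACA, FASN, SCD, ELOVL5 and FADS2 fell and ACLY rose. SCD, the desaturase that makes oleate, had signals of 4964, 4775 and 4552 on the control arrays and 3354, 3391 and 3491 on the LSD1 siRNA arrays. It was at 71.6% of control, with a log2 change of -0.48 ± 0.06 (SE) and a limma adjusted p of 5.06e-05, and it kept its call under every alternative run. FADS2, the first desaturase of polyunsaturated fatty acids, had signals of 656, 684 and 603 on the control arrays and 474, 447 and 378 on the LSD1 siRNA arrays, a change of -0.57 ± 0.11 (limma adjusted p = 0.00104). The groups of both desaturase genes stood apart on all arrays. ELOVL5, an elongase of polyunsaturated fatty acids, had signals of 15367, 14865 and 14829 on the control arrays and 11602, 11752 and 11836 on the LSD1 siRNA arrays. The spread within each group was small beside the gap between them, and the change was -0.36 ± 0.06 (limma adjusted p = 0.00031). FASN, the fatty acid synthase, had signals of 1019.9, 875 and 875 on the control arrays and 802, 677 and 574 on the LSD1 siRNA arrays, a change of -0.43 ± 0.12 (limma adjusted p = 0.0105). ACACA, the carboxylase that commits acetyl-CoA to the pathway, had signals of 1446, 1497 and 1384 on the control arrays and 1142, 1238 and 1228 on the LSD1 siRNA arrays, a change of -0.26 ± 0.07 (limma adjusted p = 0.0102). All LSD1 siRNA arrays were below all control arrays for both genes.

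ACLY, which cleaves citrate to acetyl-CoA and so feeds both sterol and fatty acid synthesis, had signals of 10574, 10196 and 10453 on the control arrays and 11582, 13474 and 11367 on the LSD1 siRNA arrays. The change was 0.22 ± 0.07 (limma adjusted p = 0.029), and LSD1 siRNA array 2 was the high one. Without that array it was 0.14 (limma adjusted p = 0.157), and without control array 2 it was 0.20 (limma adjusted p = 0.0906), so no fatty acid synthesis member was then called higher. Its 3 probe sets had nearly equal changes, 0.21 ± 0.07, 0.22 ± 0.07 and 0.21 ± 0.07. ELOVL6, an elongase of saturated fatty acids, was at 0.14 ± 0.08 and did not pass, and ACACB, the carboxylase whose product restrains entry into mitochondria, had -0.30 ± 0.22. SREBF1, which encodes the factor that drives fatty acid synthesis genes, had signals of 578, 566 and 511 on the control arrays and 458, 559 and 416 on the LSD1 siRNA arrays. Its value was -0.21 ± 0.12 (limma adjusted p = 0.176), LSD1 siRNA array 2 lay within the control range, and without that array it was -0.33 with a limma adjusted p of 0.0469. Without an intensity trend FASN had a limma adjusted p of 0.0571, and with the mean of all probe sets it was at -0.21 (limma adjusted p = 0.193), ELOVL5 at -0.09 (0.526) and ACACA, on the other side of 0, at 0.14 (0.393). That left FADS2 and SCD as lower members, 2 in place of 5.

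Among genes that burn fatty acids, CPT2, ACADM and HADHB rose. CPT2, which releases fatty acids from carnitine inside mitochondria, had signals of 280.0, 277 and 311 on the control arrays and 444, 489.7 and 478 on the LSD1 siRNA arrays. That is 163% of control, with a log2 change of 0.67 ± 0.11 (SE) and a limma adjusted p of 0.000306. ACADM, the dehydrogenase of medium-chain fatty acids, had signals of 3441, 3591 and 3899 on the control arrays and 5008, 5057 and 5563 on the LSD1 siRNA arrays, a change of 0.51 ± 0.07 (limma adjusted p = 9.15e-05). Both kept their calls under every alternative run, and their groups did not overlap. HADHB, the thiolase subunit of the trifunctional protein, had signals of 4576, 4354 and 4858 on the control arrays and 5204, 5597 and 5434 on the LSD1 siRNA arrays, a change of 0.24 ± 0.06 (limma adjusted p = 0.00953). Without LSD1 siRNA array 2 its limma adjusted p was 0.0502, and without an intensity trend it was 0.0506. Its partner subunit gene HADHA had signals of 2728, 2495 and 2873 on the control arrays and 3163, 3101 and 2896 on the LSD1 siRNA arrays. The groups did not overlap, but the value of 0.18 ± 0.07 did not pass (limma adjusted p = 0.0581), and without control array 3 it was 0.22 (0.0214). Another set of HADHA, with signals of 3060.2, 3118 and 2034 on the control arrays and 2579, 2313 and 2139 on the LSD1 siRNA arrays, went the other way at -0.20 ± 0.14 with overlapping groups, its remaining set was at 0.12 ± 0.07, and the mean over its 3 sets was 0.03 (limma adjusted p = 0.732). CPT1A, which loads fatty acids onto carnitine at the outer membrane, had a value of -0.07 ± 0.09, and ACADVL, the dehydrogenase of very long chains, had 0.06 ± 0.07. Neither passed, so genes of both the entry step and the later steps are among those without a call.

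HADHA and HADHB lie head to head, with starts 307 bases apart on opposite strands, so 194 of the 250 bases before the HADHB start also lie before the HADHA start. HADHB passed the test and HADHA did not, but their values were 0.24 ± 0.06 and 0.18 ± 0.07, and the difference between them was not tested. The window is shown because the genes of both subunits share it, and the motif search found none of its 3 motifs there. It is at chr2:26244689-26244938 on the plus strand for HADHB, and capitals mark the bases shared with the HADHA window.
HADHB: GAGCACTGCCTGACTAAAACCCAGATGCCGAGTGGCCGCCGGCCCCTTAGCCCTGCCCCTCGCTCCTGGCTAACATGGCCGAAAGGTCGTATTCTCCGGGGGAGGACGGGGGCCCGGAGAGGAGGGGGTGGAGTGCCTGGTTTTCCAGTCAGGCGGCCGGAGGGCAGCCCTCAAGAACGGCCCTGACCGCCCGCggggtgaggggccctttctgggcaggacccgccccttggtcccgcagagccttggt

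ACSL4 and PPARGC1A had the largest rises among the members. ACSL4 encodes an acyl-CoA synthetase that prefers arachidonate, and its signals were 631, 568 and 747 on the control arrays and 1145, 1203 and 1164 on the LSD1 siRNA arrays. It was at 180.5% of control, with a log2 change of 0.85 ± 0.10 (SE) and a limma adjusted p of 3.31e-05. PPARGC1A, a coactivator of mitochondrial and oxidation genes, had dim signals of 94.4, 74.4 and 94.8 on the control arrays and 149, 154 and 172 on the LSD1 siRNA arrays. The groups were apart, with a change of 0.76 ± 0.18 (limma adjusted p = 0.00544). The change of a gene this dim is understated by the constant added, and with a constant of 1 it was 0.85. LPIN1, a phosphatidate phosphatase that also acts with PPARGC1A, had signals of 865, 875 and 944 on the control arrays and 1110.0, 1153 and 1134 on the LSD1 siRNA arrays, a change of 0.34 ± 0.07 (limma adjusted p = 0.00272). The related regulators did not pass: PPARGC1B had 0.10 ± 0.14, PPARA -0.23 ± 0.15, PDK4, a kinase that shuts off pyruvate oxidation, -0.19 ± 0.20, and PPARG, a receptor that drives fat storage, 0.18 ± 0.07 (limma adjusted p = 0.0627). The PPARG arrays did not overlap, at 2312, 2311 and 1998 on the control arrays and 2457, 2562 and 2469 on the LSD1 siRNA arrays. Those of PPARA did not overlap either, in the other direction. They were at 203, 212 and 210 on the control arrays and 154, 175 and 201 on the LSD1 siRNA arrays. Of 7 tested PPARA sets, 6 lay below 0 and 1 above, and 0 passed. ACSL1, another acyl-CoA synthetase, had a value of -0.05 ± 0.08, PNPLA2, the lipase that starts triglyceride breakdown, -0.17 ± 0.09, and FABP5, a fatty acid carrier, -0.06 ± 0.07.

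The probe sets of a gene did not always move alike. Of 100 member probe sets above the filter, 17 rose and 21 fell, beside 17.0% and 17.4% of all 27079 tested probe sets, 34.4% together. Of 28 members with several tested sets, 17 had at least 1 that passed. In 10 of the 17 all tested sets lay on the same side of 0, in 7 they lay on both sides, and in none did sets pass in opposite directions. SCD, EBP, DHCR7, INSIG1, CPT2, LPIN1 and HMGCS1 are among the 10. SCD had 4 tested sets with changes from -0.52 to -0.30, of which 3 passed, and LPIN1 had 3 sets that all passed, at 0.55, 0.34 and 0.27. EBP had 4 tested sets, of which 3 passed, at -0.52, -0.48 and -0.24, and the other was at -0.18. INSIG1 had 3, of which 2 passed, at -0.39 and -0.21, and the other was at -0.06.

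ACSL4, SC5D, FASN and ELOVL5 are among the 7, with sets beside the called one that were dim. The 2 other sets of ACSL4 had signals between 15.5 and 67.2 on all 6 arrays, with values of -0.43 ± 0.28 and -0.33 ± 0.39 that did not pass. Averaging them with the called set gave 0.03 for ACSL4 (limma adjusted p = 0.918). PPARGC1A has 1 tested set, and averaging it with a dimmer one below the filter gave 0.08 (limma adjusted p = 0.832). ACACA had a second set with signals of 186, 169.5 and 124 on the control arrays and 219.8, 193 and 304 on the LSD1 siRNA arrays, at 0.53 ± 0.20 (limma adjusted p = 0.0538), so the mean over its sets was 0.14 (limma adjusted p = 0.393), against the sign of the called set. SREBF2 had a second set with signals of 108, 114 and 156 on the control arrays and 228, 179 and 181 on the LSD1 siRNA arrays, which rose by 0.59 ± 0.18 (limma adjusted p = 0.0247), while its other sets were at -0.28 ± 0.13 and 0.07 ± 0.14 and did not pass. NSDHL, a sterol dehydrogenase gene without a call by its brightest set, had a second set with signals of 912, 939 and 711 on the control arrays and 679, 636 and 726 on the LSD1 siRNA arrays, a change of -0.31 ± 0.11 (limma adjusted p = 0.0454). ACSL1 had a second set with signals of 566, 619 and 584 on the control arrays and 469, 405 and 451 on the LSD1 siRNA arrays, a change of -0.41 ± 0.10 (limma adjusted p = 0.00639), the only member set of fatty acid use that fell. Which transcripts each set reads was not analysed here.

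**Figure D4:**
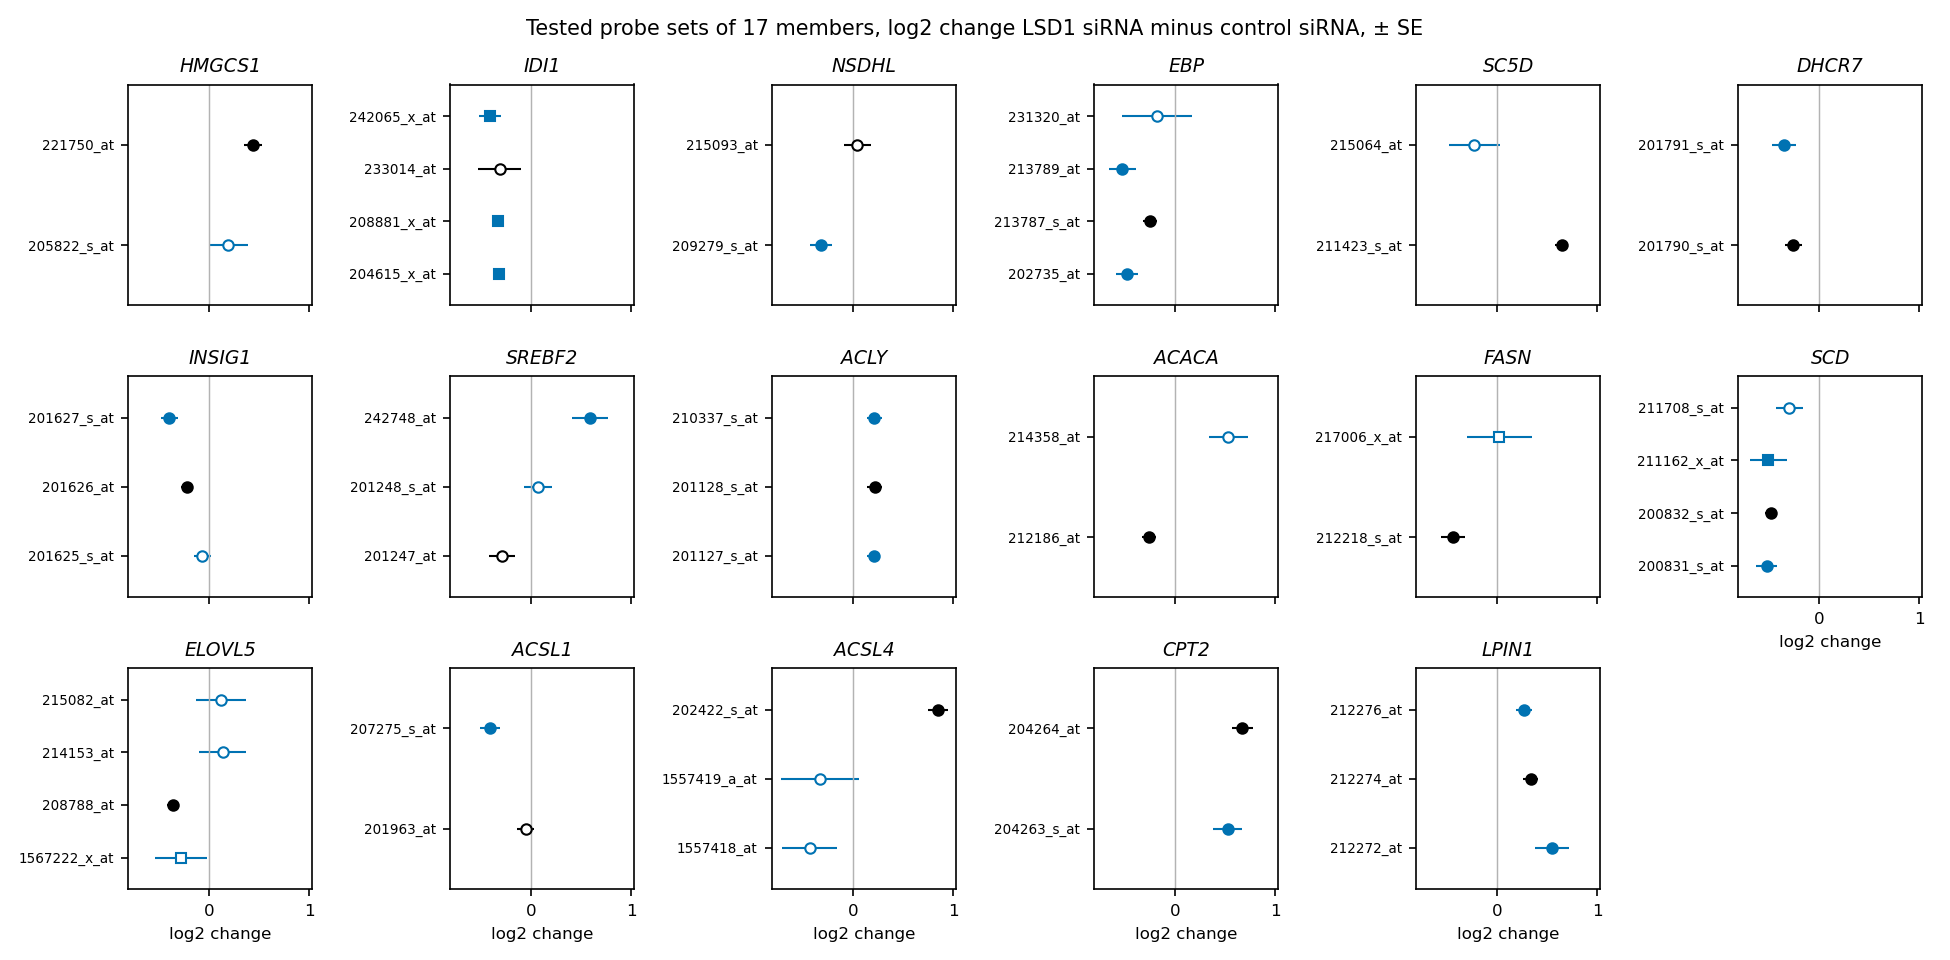
Each panel is 1 of the 17 members with several tested probe sets of which at least 1 passed, and each symbol is the log2 change of a probe set, LSD1 siRNA minus control siRNA, with its standard error. Black marks the set that represents the gene, blue the others, squares the sets with the x suffix, and filled symbols an adjusted p under 0.05 over all probe sets. The sets of IDI1, EBP and SCD lie on the lower side and those of ACLY, CPT2 and LPIN1 on the higher, while those of SREBF2, ACACA and ACSL4 lie on both.

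Other genes of the same pathways were taken from 4 lists with 96 genes in all. Of 77 that were tested, 24 rose and 19 fell, so 55.8% passed, beside 41.0% of all genes. Among 19 other sterol genes 9 rose and 3 fell, with a median log2 change of 0.13. ABCA1, which exports cholesterol, rose by 1.97 ± 0.15, from 214 ± 35.7 to 885 ± 168 (SD, n = 3), and LIPA, the lysosomal lipase that frees cholesterol from its esters, rose by 0.63 ± 0.07. GGPS1, which makes geranylgeranyl diphosphate, rose by 0.63 ± 0.07. TMEM97, a sterol-responsive membrane protein gene, changed by -1.35 ± 0.06, from 3618 ± 91.1 to 1411 ± 66.2 (SD, n = 3).

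Of 14 other fatty acid synthesis genes, 4 rose and 5 fell, with a median of -0.04. ME1, the malic enzyme that supplies NADPH, rose by 1.03 ± 0.06, FADS3 by 0.74 ± 0.07 and the elongase gene ELOVL7 by 0.63 ± 0.07. SLC25A1, which exports citrate from mitochondria to the reaction that ACLY carries out, changed by -1.58 ± 0.12, from 881 ± 59.5 to 287 ± 44.2 (SD, n = 3). Among 26 other oxidation genes 7 rose and 7 fell, with a median of 0.01. ACSL5, another acyl-CoA synthetase gene, rose by 1.07 ± 0.07, and the auxiliary enzyme genes ECI2 and DECR1 rose by 0.59 ± 0.05 and 0.43 ± 0.06. ECHS1, the hydratase of short chains, changed by -0.74 ± 0.07. These oxidation genes moved in both directions in equal number, and the difference from the members of fatty acid use was not tested. Among 18 glycerolipid and lipid droplet genes 4 rose and 4 fell, with a median of -0.14: the lipase gene MGLL (0.92 ± 0.08) and the lipase cofactor gene ABHD5 (0.48 ± 0.08) rose, and the triglyceride synthesis genes DGAT1 (-0.73 ± 0.11) and GPAM (-0.51 ± 0.09) fell.

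Markers of fat and liver cells, which carry these pathways at high activity, were measured too. Of 7 adipocyte markers 3 were above the filter, and the summed signal of all 7 was 616 to 755 on the control arrays and 558 to 694 on the LSD1 siRNA arrays. The defining markers ADIPOQ, LEP and PLIN1 had mean signals of at most 28.8, near the filter signal of 28.0, while CIDEC rose and LPL fell. Of 6 hepatocyte markers 3 were above the filter by the set that represents them and 4 by any set, and the summed signal of the representative sets was 187 to 274 on the control arrays and 388 to 434 on the LSD1 siRNA arrays. No set of ALB was above the filter, with means of at most 31.2, and none of APOB, with means of at most 40.3. By the sets that represent them, TTR had means of 42.9 and 44.4 in the control and LSD1 siRNA groups, and CYP3A4 36.7 and 28.0. Neither passed. The brightest x set of CYP3A4 had means of 87.2 and 53.5 and did not pass. APOA1 is represented by a set below the filter, and its 2 x sets, which did not pass the test, had group means from 33.2 to 58.2. SERPINA1, which rose from a mean of 101 to 254, is in that sum. Of the 3 leukocyte markers above the filter, 0 passed in limma at an adjusted p of 0.05, and 0 at an unadjusted one.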

How the data were processed

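Each of 6 Affymetrix arrays has 1 column of linear intensity values, as deposited, over 54675 probe sets. The submitters' processing notes name GCOS, MAS5 and Affymetrix Expression Console 1.1. The trimmed mean of the deposited signals is 500.1 on every array, so a difference in total RNA per cell cannot be seen. The values carry no detection calls. Precision is limited by the number of arrays.

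Probe sets with exactly 1 symbol were kept (41097; 1801 have several, 11777 are not listed), control sets were dropped, and each gene took its set with the highest mean, x suffix sets only where it had no other. Genes with a mean log2(signal + 15) above the 40th percentile, a signal of about 28.0, were tested with limma 3.58.1 in R 4.3.3 (lmFit, eBayes with an intensity trend, two-sided, Benjamini-Hochberg at 0.05). The same test was run on 27079 probe sets. The fit was tested on simulated data. The text names all 48 members, KDM1A and up to 4 genes with the smallest p from each list of other pathway genes; marker genes were chosen for printing after their values were seen. Members, lists and tests were chosen with earlier results of these data known. Promoter windows came from a RefSeq table (GRCh38.p14), and figures were drawn with matplotlib 3.10.9. Alternatives covered the constant, the filter, normalization, the variance model, a replicate block, the probe sets of a gene and leaving out each array.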

Additional observations from a re-analysis of the deposited data

How the results depend on the processing

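Of the 21 called members, 8 kept their call in all 17 alternatives, and of the 23 without a call, 17 stayed so. Constants of 1 and 60, a filter at the 60th percentile, quantile normalization and median centring kept all 21. With the mean of all probe sets, higher sterol members numbered 2, lower fatty acid synthesis members 2 and lower members of fatty acid use 1 (ACSL1), and ACACA turned to 0.14 (limma adjusted p = 0.393), through a second set on the other side of 0. Without an intensity trend, lower sterol members numbered 2, higher fatty acid synthesis members 0 and called member probe sets 25. In the unmoderated test these were 3, 0 and 20, and with no filter higher fatty acid synthesis members were 0. The cause was not tested. ACLY is the only higher member of that class: where the limma count was 0, the count at an unadjusted p under 0.05 was 1 with no filter, without an intensity trend and without control array 2, and 0 in the unmoderated test and without LSD1 siRNA array 2. Leaving out 1 array gave 3 to 6 lower sterol members and 0 to 1 higher fatty acid synthesis members. Over the genes tested, the deviations of same-numbered arrays were nearly uncorrelated (correlations from -0.01 to 0.02). The sources do not state whether same-numbered arrays are paired, and these correlations cannot decide it. With the replicate block, 5679 genes passed in place of 5673, lower sterol members were 6 with SREBF2 added, and no member call was lost. Taking the brightest probe set whatever its suffix, an alternative chosen after seeing the data, also gave 6, with IDI1 added.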
